A study of Mus musculus with 80 samples.

Results

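Among 80 mammary tumours driven by a Myc transgene, 6 carried transcripts of chromosome 11 genes at a level set apart from the other 74, and the expression profile of those 6 tumours is described here. They were chosen by their own expression values. Each tumour received a chromosome 11 score, the median over chromosome 11 genes of the gene's log2 signal relative to its mean over all 80 tumours, minus the same median over all genes of that array. Tumours with a score above 0.15 were taken as high, which gave 6 of 80, and all others formed the comparison group. Because chromosome 11 genes set the grouping, their values are given as a description and without a test, and tests were kept to genes, chromosomes and groupings that the score did not use.

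Tumours driven by an oncogene often gain or lose whole chromosomes or large segments of them. Where a chromosome is gained, transcripts of its genes tend to rise together by a modest factor, so a shared shift of neighbouring genes in expression data is a common, indirect reading of a chromosome's dosage. The mammary gland has an inner layer of luminal cells, which make milk, and an outer layer of basal or myoepithelial cells, which contract and rest on the basement membrane, all within a stroma of fibroblasts, vessels and immune cells. Mouse chromosome 11 holds the receptor gene Erbb2, the repair gene Brca1, a cluster of type I keratin genes and a cluster of chemokine genes. DNA copy number was not measured here.

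All 80 tumours came from FVB mice with the MMTV-Myc transgene, in which the mouse mammary tumour virus promoter drives Myc mainly in mammary epithelium, and each tumour was flash frozen and put on 1 Affymetrix array. The genotypes at the E2F transcription factor genes were wild type, E2F2 null, E2F1 null and E2F3 heterozygous, with 20 tumours each. The high group was mixed, with 1 wild type, 2 E2F1 null and 3 E2F2 null tumours, and the other 74 held all 20 E2F3 heterozygous tumours, 17 that were E2F2 null, 18 that were E2F1 null and 19 of wild type. Every tumour in both groups carried the Myc transgene, and no normal gland was part of the comparison. The tumours' names begin with a number that some of them share and that may mark the animal. The 6 high tumours carried 6 different such numbers, and the labels do not say which tumours came from separate animals. Bulk tumour RNA was measured, so fewer cells of a type and less RNA per cell cannot be told apart in any result below.

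The epithelial markers of the tissue were present. Krt18, a keratin of luminal cells, measured 12.79 to 14.21 on the log2 scale in the 6 high tumours and 12.28 to 14.16 in the others. Krt8, its partner, measured 12.30 to 13.89 against 12.18 to 13.92, and the epithelial adhesion gene Epcam 12.45 to 12.90 against 11.38 to 13.12. The ranges overlapped for all 3. Array quality measures did not differ detectably. The median log2 signal of an array, its 3-prime to 5-prime ratios of Gapdh and beta-actin and its mean correlation with the other arrays gave permutation p-values of 0.193 to 0.971.

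The highest score was 0.376, in E2F1 null replicate 4. Wild type replicate 3 followed at 0.372 and E2F2 null replicate 1 at 0.350. The other 3 high tumours were E2F1 null replicate 20 at 0.252, E2F2 null replicate 10 at 0.208 and E2F2 null replicate 18 at 0.203. Below the threshold, the nearest tumours were E2F3 heterozygous replicate 6 at 0.0819 and E2F3 heterozygous replicate 3 at 0.0513. The 74 others ranged from −0.102 to 0.0819 with a median of −0.0192 and an SD of 0.0301, so the gap of 0.121 between the lowest high tumour and its nearest neighbour exceeded the SD of the 74. Within the high group 3 tumours lay at 0.350 or above and the other 3 at 0.252 or below. The name number of E2F2 null replicate 18 was shared with 3 other E2F2 null tumours, and these scored −0.0185, −0.0281 and −0.0315, inside the main body of tumours.

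**Figure D1:**
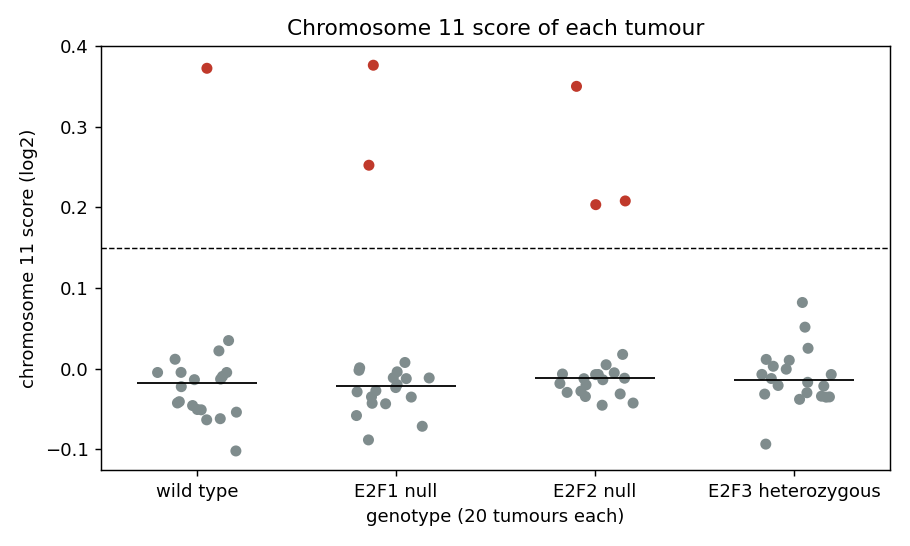
Chromosome 11 score (log2 units, vertical axis) of each of the 80 tumours by genotype, with the 6 high tumours in red, the 74 others in grey, the median of each genotype as a black line and the threshold of 0.15 dashed. The 6 high tumours lie between 0.203 and 0.376, and the highest of the others is at 0.0819.

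Mean scores by genotype, which the rule did not use, did not differ from wild type beyond their errors. High tumours numbered 1 of 20 on the wild type background, 0 of 20 among E2F3 heterozygous tumours, 3 of 20 among E2F2 null tumours and 2 of 20 among E2F1 null tumours. Scores were averaged within each shared name number before testing. The mean then differed from wild type by 0.01 (SE 0.0401) in E2F1 null tumours, by 0.04 (SE 0.045) in E2F2 null tumours and by −0.01 (SE 0.0281) in E2F3 heterozygous tumours. Two-sided permutation tests gave p = 0.843, 0.356 and 0.957, and 0.957 for each after Benjamini-Hochberg adjustment over the 3 comparisons. The transgene's own gene was no guide to the group. Myc, on chromosome 15, measured 13.43 to 13.88 in the high tumours and 12.48 to 13.92 in the others, and its difference of 0.13 (SE 0.11) had an adjusted p of 0.499 in limma.

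The shift spanned the chromosome. The 776 chromosome 11 genes were put in order along the chromosome and divided into 10 segments of 77 or 78 genes, and each segment was scored as the whole chromosome had been. In each of segments 1 to 7, which run from Eif4enif1 to Top2a, all 6 high tumours lay above all 74 others. The lowest value that any high tumour reached in any segment was 0.141, in segment 8, and the highest was 0.572, in segment 6 of wild type replicate 3. That tumour stood apart from the other 5 in segment 6, which begins at Spag5 and ends at Dynll2, where the median of the 6 was 0.294. In segments 8 to 10 the groups overlapped. In segments 8 and 9 the overlap came from E2F3 heterozygous replicate 6 alone, and in segment 10 also from E2F3 heterozygous replicate 14, which at 0.207 lay above 3 of the high tumours. E2F3 heterozygous replicate 6 had a median of 0.301 over segments 8 to 10 and reached 0.347 in segment 10, but only 0.04 over segments 1 to 6. It was the highest scoring tumour below the threshold, and over the end of the chromosome from Igfbp4 onward it measured as high as the high tumours.

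**Figure D2:**
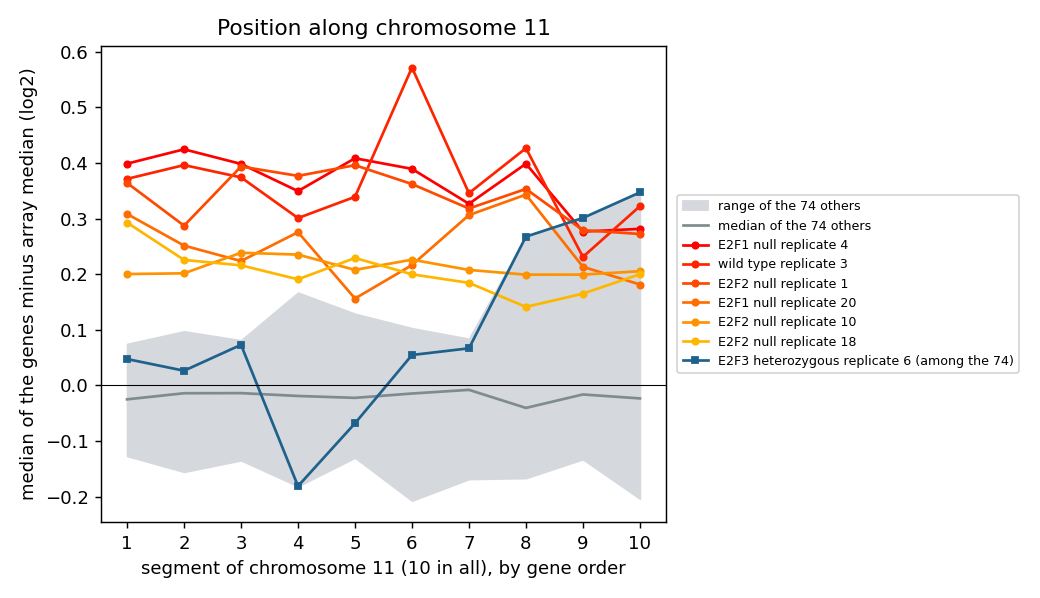
Median of the chromosome 11 genes minus the array median (log2, vertical axis) in 10 segments of chromosome 11 by gene order (horizontal axis), for each high tumour, for E2F3 heterozygous replicate 6 and for the 74 others as a grey range with their median. The high tumours stay between 0.141 and 0.572 throughout, and E2F3 heterozygous replicate 6 lies within or above their range only in segments 8 to 10.

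The typical chromosome 11 gene was higher by 0.30 on the log2 scale, a 1.23-fold difference, with the middle of the genes between 0.05 and 0.49 (first and last quartile). The mean was higher in the high tumours for 602 of 776 genes, or 77.6%, beside 45.0% of the 7993 genes outside chromosome 11. All 6 high tumours lay above the median of the others for 332 chromosome 11 genes, or 42.8%, beside 8.9% outside. For 52 genes on the chromosome all 6 lay below that median, beside 15.8% of genes outside. These shares follow from the rule and carry no test. Complete separation of single genes was rare. All 6 high tumours exceeded all 74 others for 2 genes of chromosome 11, or 0.258%, beside 0.0% outside.

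The size of the shift depended on how strongly a gene was expressed. In the least expressed of 3 equal groups of chromosome 11 genes the median difference was 0.13, with 58.3% of genes higher. In the middle group it was 0.37 with 83.7% higher, and in the most expressed group 0.31 with 90.7% higher. By tumour, the median difference over the 776 genes from the mean of the 74 others was 0.410, 0.363, 0.346, 0.284, 0.198 and 0.191, in the order of the scores. Medians of the other chromosomes ran from −0.09 to 0.17, and the share of genes with a higher mean from 35.3% on chromosome 8 to 68.0% on chromosome 15.

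**Figure D3:**
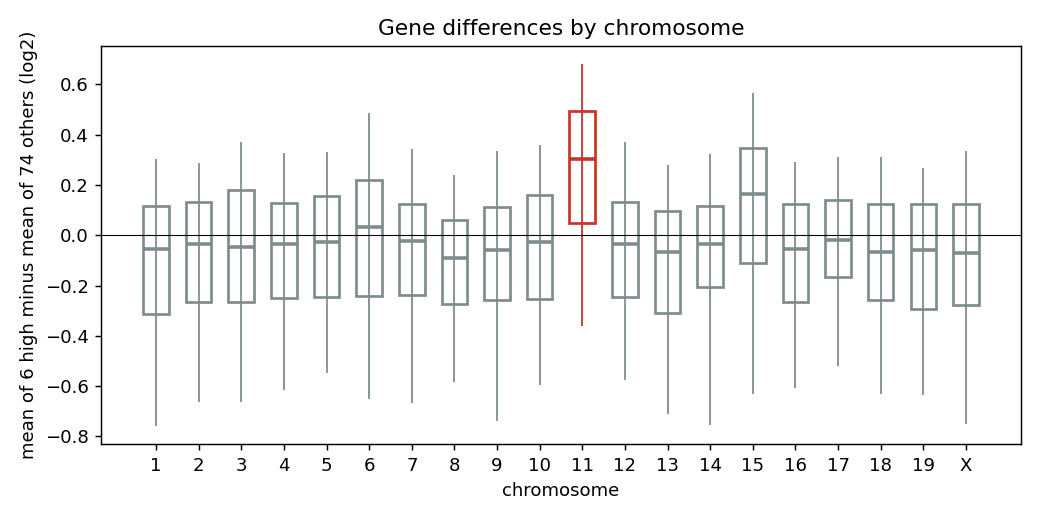
Difference between the mean of the 6 high tumours and the mean of the 74 others (log2, vertical axis) over the genes of each chromosome (horizontal axis). Boxes span the quartiles, thick lines are medians and thin lines run from the 10th to the 90th percentile; chromosome 11 (red), which chose the tumours, has a median of 0.30, and chromosome 15 follows at 0.17.

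The 2 genes whose levels separated the groups fully were Gps2 and Dhrs7b, named here after their values were seen. Gps2, a subunit of the nuclear receptor corepressor complex, measured 8.17 to 8.58 in the high tumours with a median of 8.31, and 6.88 to 8.11 in the others with a median of 7.69. The mean was 1.59-fold higher. Dhrs7b, a short-chain dehydrogenase/reductase, measured 9.88 to 10.65 with a median of 10.18, against 8.46 to 9.82 with a median of 9.20, a 2.07-fold difference. For both, the lowest high tumour was E2F2 null replicate 18, the tumour with the lowest score of the 6.

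Genes of DNA replication, mitosis and repair on chromosome 11 had a higher mean in 22 of 22 measured members, beside 77.6% of the chromosome's genes. Their median difference was 0.57, beside 0.30 for the typical gene of the chromosome. The share of higher genes on the chromosome was larger among strongly expressed genes. Chromosome 11 genes also chose the tumours, so nothing particular to this list is read from its count or median. Rpa1, which coats single-stranded DNA during replication, measured 11.98 to 12.36 with a median of 12.30 against 10.88 to 12.20 with a median of 11.59, and 4 of the 6 exceeded all others. Brca1, a homologous recombination gene, measured 8.80 to 9.22 with a median of 9.0 against 7.52 to 9.13 with a median of 8.46. The mitotic kinase gene Aurkb differed by 0.68, the survivin gene Birc5 by 0.56 and the topoisomerase gene Top2a by 0.46, and their ranges overlapped widely. Rad51d and Rad50, both of double-strand break repair, each had 4 of 6 high tumours above all 74 others. Members at the small end were Kpna2, a nuclear import gene, at 0.19 and the kinase gene Cdk12 at 0.02.

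Housekeeping groups on the chromosome are given beside a higher mean in 77.6% of all its genes, a share that was larger among strongly expressed genes. Nothing particular to these groups is read from their counts. The mean was higher for 20 of 20 ribosome and translation genes, at a median of 0.45, and proteasome and ubiquitin genes in 17 of 17 with a median of 0.42. The mitochondrial ribosome gene Mrpl10 measured 10.18 to 10.87 with a median of 10.50 against 9.23 to 10.29 with a median of 9.93, and 5 of 6 high tumours exceeded all others. Eif4a1, the RNA helicase of translation initiation, was narrow at 13.48 to 13.59 against 12.76 to 13.50. The proteasome activator gene Psme3 differed by 0.57 with 5 of 6 high tumours above all others, and the core subunit gene Psmb6 by 0.48 with 4 of 6. Among the smallest in these groups were genes with very strong signals, such as Rpl38 at 0.19 and Eif5a at 0.13.

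The mean was higher for 21 of 24 chromatin and transcription genes, at a median difference of 0.34, mitochondrial energy genes in 14 of 16 with a median of 0.34, and splicing and RNA export genes in 17 of 19 with a median of 0.20. Over the whole chromosome 77.6% of genes had a higher mean, and the median was 0.30. The acetyltransferase gene Kat2a differed by 0.56 and the Mediator subunit gene Med31 by 0.44, each with 4 of 6 high tumours above all others. The core spliceosome gene Prpf8 measured 11.74 to 11.98 against 10.93 to 11.80, with 5 of 6 above all others, whereas the splicing factor gene Srsf1 differed by 0.02. Other probe sets of Srsf1 disagreed, from −0.53 to 0.44. Slc25a39, a mitochondrial carrier, differed by 0.47 with 4 of 6 above all others, and the fatty acid synthesis genes Acaca and Fasn by −0.02 and −0.10. In the list of p53 regulation and cell survival 9 of 10 genes had a higher mean, at a median of 0.45. Among them the p53 phosphatase gene Ppm1d differed by 0.38 and the cell cycle regulator Ccng1, a p53 target, by −0.11; 2 further probe sets of Ccng1 gave 0.22 and 0.06.

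Growth factor signalling genes had a higher mean in 17 of 25 members, beside 77.6% of the chromosome's genes. Their median was 0.21, beside 0.30 for the chromosome. Erbb2, the receptor tyrosine kinase amplified in some human breast cancers, measured 7.93 to 8.97 with a median of 8.44 against 7.09 to 9.21 with a median of 7.84. No high tumour exceeded all others for Erbb2, and its difference was 0.54. Its neighbour Grb7, an adaptor protein gene, measured 8.69 to 9.54 against 6.79 to 9.83, a difference of 0.97. The epidermal growth factor receptor gene Egfr differed by 0.77 and the stress kinase gene Mapk9 by 0.71. Stat3 differed by 0.03, while Socs3, a feedback inhibitor of cytokine signalling, differed by −0.97 and the growth factor binding protein gene Igfbp4 by −1.75.

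The groups that ran against the chromosome, where 77.6% of genes had a higher mean, were those tied to cell type. Type I keratins and their junctional partners were higher in 3 of 7 members with a median of −0.58, matrix and adhesion genes in 4 of 17 with a median of −0.36, and chemokines and cytokines in 2 of 10 with a median of −0.69. Krt14, the keratin of basal cells, measured 4.63 to 7.67 with a median of 7.21 against 5.81 to 13.02 with a median of 10.54. The difference was −3.29, the lowest of all 776 genes, and the other probe sets of Krt14 gave −3.33 and −1.31. Krt19 measured 5.66 to 8.90 in the 4 tumours with the higher scores and 11.69 and 11.88 in E2F2 null replicates 10 and 18, inside the range of the others. The collagen gene Col1a1 differed by −1.41 and the matrix protein gene Sparc by −1.27. Ccl8 and Ccl6, chemokines that recruit leukocytes, differed by −1.33 and −1.75. Among the members that went the other way, the type I keratin gene Krt23 was higher by 2.99. The chemokine gene Ccl5 was higher by 2.14, unevenly among the 6 high tumours.

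The largest differences on the chromosome were uneven among the 6. A log2 difference above 1 was found for 24 genes and a difference below −1 for 32. Lpo, which encodes the milk enzyme lactoperoxidase, measured 10.25 to 13.14 with a median of 11.32 against 3.07 to 13.18 with a median of 8.0. Its difference of 3.72 was the largest of the 776, but the others covered the full range of the high tumours. Gdpd1, a phosphodiesterase gene, was more even, at 10.10 to 11.54 against 5.30 to 10.66, with 4 of 6 above all others. Cpd, which encodes carboxypeptidase D, measured 11.83 to 13.07 with a median of 12.84 against 8.74 to 12.82 with a median of 10.20, and its 4 other probe sets gave differences of 2.23 to 2.58. The chemokine gene Ccl5 was at 10.84 in wild type replicate 3 and 9.81 in E2F1 null replicate 20 and at 3.27 in E2F1 null replicate 4. The rest of the largest 10 were Krt23 at 2.99, Chad at 2.32, Tmigd1 and Ppp1r1b at 2.26, Fn3k at 1.79 and Arl16 at 1.42. Wap, the whey acidic protein of milk, was the second lowest gene at −3.21, and it measured 5.19 to 7.62 in the 4 tumours of higher score and 9.20 and 11.63 in E2F2 null replicates 10 and 18.

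Other chromosomes did not move with chromosome 11 in a fixed way. On chromosome 6 the 3 highest scoring tumours were high, at 0.271, 0.261 and 0.255, and the other 3 were low, from −0.165 to −0.173. On chromosome 15 the order of scores from the top was −0.223, 0.226, 0.244, −0.181, 0.455 and 0.419, so 4 of the 6 were high. On chromosome 8 all 6 were below 0, from −0.0821 to −0.0078, whereas the others reached 0.381. The mean differences of 0.05 for chromosome 6 (p = 0.574), 0.17 for chromosome 15 (p = 0.073) and −0.07 for chromosome 8 (p = 0.052) did not pass two-sided permutation tests, with adjusted p of 0.641, 0.142 and 0.142 over 19 chromosomes. Chromosomes 9, 13, 19 and X were lower in the high tumours by 0.05 to 0.07, with adjusted p of 0.00019, 0.0481, 0.0481 and 0.0283, the first resting on the smallest p that the resamples can give. These 4 calls depended on the array median that every score subtracts, which includes chromosome 11 itself. Measured against genes outside chromosome 11, an alternative added after the values were seen, 0 of 19 chromosomes passed. Without E2F1 null replicate 6, 2 of the 4 passed, chromosomes 9 and X.

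**Figure D4:**
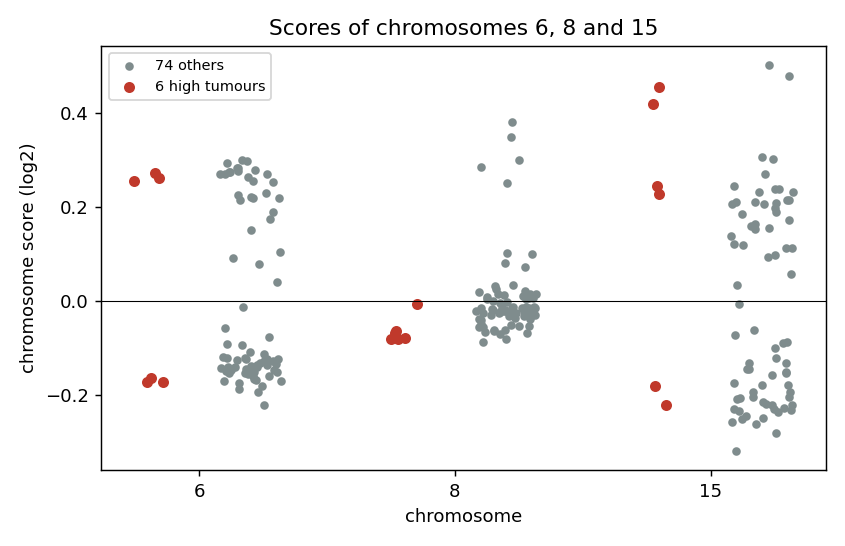
Scores of chromosomes 6, 8 and 15 (log2, vertical axis), computed as for chromosome 11, in the 6 high tumours (red) and the 74 others (grey). The high tumours fall on both sides of 0 on chromosomes 6 and 15 and lie between −0.0821 and −0.0078 on chromosome 8.

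The comparison outside chromosome 11 asked which genes the score did not use differed between the 6 and the 74. In limma, with genotype as a covariate and the shared name number as a random block, 277 of 7993 genes rose (3.47%) and 513 fell (6.42%) at a Benjamini-Hochberg adjusted p of 0.05, and 66 of those that rose and 214 of those that fell did so by more than 1 log2 unit. With each array centred on its genes outside chromosome 11, the split was 365 against 391. The median gene outside the chromosome shifted by −0.03. The number of calls rested on few tumours. Without wild type replicate 3 it was 22 higher and 36 lower, without E2F2 null replicate 1 it was 70 and 144, and without E2F1 null replicate 20 it was 79 and 167. With 1 array per name number, which kept 53 arrays and 5 high tumours, 36 rose and 59 fell. All 790 genes kept their sign without each high tumour in turn and with 1 array per name number. Those fits reuse most of the arrays that chose the 790 genes, so the kept signs are no separate support. With the name number as a fixed block, a fit that 1 high tumour carries, 764 of the 790 kept their sign.

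Basal and myoepithelial genes were low throughout the high group. All 16 measured members had a lower mean, with a median difference of −1.29 beside −0.03 over all genes outside chromosome 11. In the limma test 7 of 16 fell and 0 rose, beside 6.42% and 3.47% of all those genes. Krt5, the partner keratin of Krt14 in basal cells, measured 5.11 to 6.29 with a median of 5.56 in the high tumours and 5.17 to 11.71 with a median of 8.25 in the others. Its difference was −2.76 (SE 0.74, adjusted p = 0.0164). Trp63, the transcription factor that specifies basal cells, measured 3.54 to 5.16 against 2.57 to 10.03 and fell by 2.45 (SE 0.66, adjusted p = 0.0167). For both genes all 6 high tumours lay below the filter floor of 6.31 on the log2 scale (a signal of 74.6 that a gene had to exceed on 10 arrays), so both passed the filter through the other tumours. The same was true of Lama3, Id4 and Snai2, so of the 7 calls only those of Lamb3 and Cav1 were of other genes. Below that floor the order and the exact size of a fall are uncertain. All 6 high tumours lay below it for 77 of the 513 genes that fell.

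Anchorage of basal cells to the basement membrane runs through laminin-332 and the hemidesmosome, and some genes of that junction were among those that fell. The hemidesmosome integrin gene Itgb4, on chromosome 11 and so without a test, differed by only −0.28. The junction was not tested as a set. Lama3, the alpha chain of laminin-332, measured 3.04 to 5.51 with a median of 4.97 against 5.07 to 11.29 with a median of 7.71. It fell by 3.21 (SE 0.66, adjusted p = 0.00212). Lamb3, its beta chain, fell by 1.79 (SE 0.44, adjusted p = 0.01). Col17a1, a transmembrane collagen of the hemidesmosome, measured 2.51 to 4.52 with a median of 2.70 against 2.66 to 10.14 with a median of 7.18 and fell by 3.79 (SE 0.71, adjusted p = 0.000826). For Lama3 and Col17a1 all 6 high tumours lay below the floor, so the sizes of these falls are uncertain, and the same holds for Id4 and Snai2. Snai2, a transcription factor of basal and mesenchymal cells, fell by 1.63, Id4 by 1.97 and the caveolin gene Cav1 by 1.43. A further probe set of Id4 had an adjusted p of 0.0666. Of the 7 called basal genes, 2 passed without wild type replicate 3 (Lama3 and Snai2), 3 passed without E2F2 null replicate 1, and Lama3 alone passed with 1 array per name number, while all 16 members kept a negative difference in each of these fits.

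Luminal genes did not shift as a group. Of 16 members 7 had a higher mean, the median difference was −0.07, 1 rose and 0 fell, beside 3.47% and 6.42% of all genes outside chromosome 11. Spdef, a transcription factor of secretory luminal cells, measured 5.66 to 9.14 with a median of 8.24 against 2.77 to 9.73 with a median of 5.17 and rose by 2.66 (SE 0.77, adjusted p = 0.0223), with 5 of 6 high tumours at 7.97 or above. Without wild type replicate 3, E2F1 null replicate 20, E2F2 null replicate 1 or E2F2 null replicate 18 it did not pass. Nor did it with 1 array per name number. The receptor gene Kit measured 10.34 to 11.51 against 6.44 to 11.12, with a difference of 1.30 and an adjusted p of 0.0518. Its ligand gene Kitl measured 7.81 to 8.57 against 8.07 to 11.01 in the others and fell by 1.26 (SE 0.24, adjusted p = 0.000898).

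Milk genes divided the high group in the way that Wap did. All 14 members had a lower mean, with a median difference of −1.52, and 3 of 14 fell, beside 6.42% of all genes outside chromosome 11. Csn3, kappa casein, was at 14.18 and 14.27 in E2F2 null replicates 10 and 18, near the median of 14.03 of the others, and at 11.49 to 12.94 in the remaining 4, of which 3 lay below all others. It fell by 1.24 (SE 0.23, adjusted p = 0.000826). Csn1s1, alpha casein, was at 13.27 and 12.93 in those 2 tumours and at 5.43 to 7.69 in the remaining 4, and fell by 3.29 (SE 1.13, adjusted p = 0.0486). Mfge8, a milk fat globule protein gene, fell by 1.36 (SE 0.34, adjusted p = 0.0111). Of the 3, Csn3 passed without each high tumour in turn, and Mfge8 did not pass without wild type replicate 3 or without E2F1 null replicate 20. Csn1s1 passed without E2F2 null replicate 10 or 18 but was lost without any of the other 4 high tumours and with 1 array per name number, where Csn3 and Mfge8 passed. Summed as a mean log2 level, the milk list lay between 6.99 and 11.68 in the high group, with 4 of 6 below the median of the others.

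**Figure D5:**
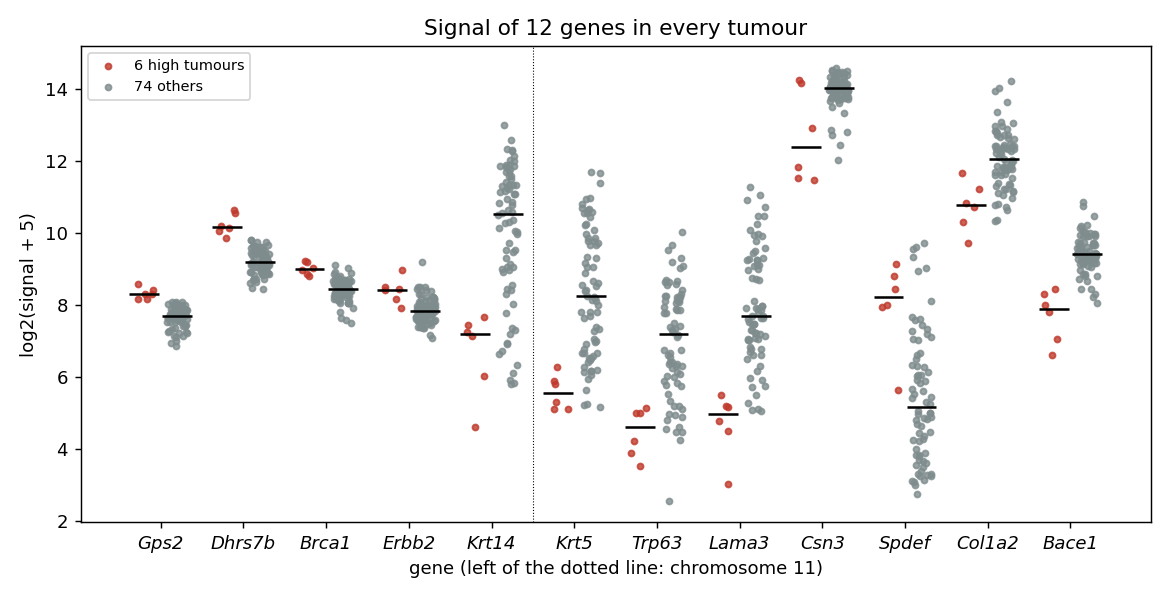
Log2(signal + 5) of 12 genes (horizontal axis) in the 6 high tumours (red) and the 74 others (grey), with medians as black lines; genes left of the dotted line lie on chromosome 11. Gps2 and Dhrs7b separate the groups, Krt14, Krt5, Trp63 and Lama3 sit at the lower end of the others, and Csn3 has 2 high tumours at 14.18 and 14.27 beside 4 at 11.49 to 12.94.

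Stromal genes were also low. All 22 fibroblast and collagen matrix genes had a lower mean, the median difference was −1.33, and 14 of 22 fell, beside 6.42% of all genes outside chromosome 11. Postn, a matrix protein made by activated fibroblasts, measured 8.67 to 11.33 with a median of 10.50 against 10.28 to 14.02 with a median of 11.91 and fell by 1.55 (SE 0.37, adjusted p = 0.00683). The type I collagen gene Col1a2 measured 9.73 to 11.66 against 10.33 to 14.24 and fell by 1.25 (SE 0.35, adjusted p = 0.0183). Col6a2 fell by 1.20, with 4 of 6 high tumours below all others, and the fibroblast receptor gene Pdgfra by 1.56. A further probe set of Col6a2 differed by −0.94, with an adjusted p of 0.11 in limma. The mean level of the list was 7.98 to 9.05 in the high tumours and 8.27 to 12.69 in the others, and all 6 lay below the median of the others. These calls depended on single tumours. Without E2F1 null replicate 20 and with 1 array per name number 0 of 22 passed, and without wild type replicate 3 or E2F2 null replicate 1 only Postn did, and without E2F2 null replicate 18 there were 8 calls, with all 22 differences negative in each case.

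Mesenchymal and immune genes lay on the same side. Of all genes outside chromosome 11, 45.0% had a higher mean and 6.42% fell. Nothing particular to the immune lists is read from their few calls. Of the epithelial to mesenchymal transition list 6 of 19 fell and 0 rose, among them the metalloprotease genes Mmp2 by 1.45 and Mmp14 by 1.35 and the transcription factor gene Prrx1 by 1.30. Without wild type replicate 3 or E2F1 null replicate 20 there was 1 call in that list, without E2F2 null replicate 1 there were 2, and with 1 array per name number 0 of 19 passed. All 19 macrophage genes had a lower mean, at a median of −0.52, and 2 fell, Cd14 by 1.04 and the mannose receptor gene Mrc1 by 1.19, with 0 calls without wild type replicate 3, E2F1 null replicate 4 or 20, or E2F2 null replicate 1, or with 1 array per name number. The defining macrophage genes Csf1r, Adgre1 and C1qa did not pass and all were well expressed, with Csf1r at 9.29 to 9.95 in the high tumours. All 16 endothelial genes had a lower mean, also at a median of −0.52, and 0 of 16 passed in limma, with 6 below an unadjusted p of 0.05. S100a8, a neutrophil gene, fell by 2.32 (SE 0.65, adjusted p = 0.0188), and the class II gene H2-Ab1 by 1.24 (SE 0.37, adjusted p = 0.0249), neither of which passed without wild type replicate 3 or with 1 array per name number. H2-Ab1 also failed without E2F1 null replicate 4 or 20 or E2F2 null replicate 1. The mean level of the macrophage list was 8.36 to 8.87 against 7.78 to 11.32, of the endothelial list 6.14 to 6.53 against 6.19 to 8.64, and of the basal list 6.49 to 7.22 against 6.73 to 9.90. All 6 high tumours lay below the median of the others for each of the 3. What part these marker levels had in the other differences was not tested.

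Of the interferon response list, 22 of 23 genes had a higher mean and the median was 0.45, yet 0 of 23 passed in limma, with 0 also at an unadjusted p of 0.05. The tally rested on wild type replicate 3. Without it 12 genes were higher and 11 lower, and the median of the limma differences was 0.01, beside 0.34 with all tumours and 0.76 without E2F2 null replicate 1. The mean level of the list ran from 6.14 to 9.08 within the high group alone and from 5.80 to 10.88 in the others. Rsad2, an antiviral gene, was at 6.09 in E2F2 null replicate 1 and at 10.07 in wild type replicate 3.

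Proliferation genes on other chromosomes gave few calls, beside shares of 3.47% that rose and 6.42% that fell among all genes outside chromosome 11, and nothing particular to these lists is read from the counts. Of 41 DNA replication and G1/S genes 1 rose and 1 fell with a median of 0.11, and of 41 mitosis genes 0 rose and 0 fell with a median of 0.15 and 0 below an unadjusted p of 0.05 in limma. Rfc1, the large subunit of replication factor C, rose by 0.33 (SE 0.11, adjusted p = 0.0439). A further probe set of Rfc1 had an adjusted p of 0.28 in limma. Ccne1, the cyclin E1 that drives entry into S phase, measured 6.69 to 7.33 with a median of 7.12 against 6.82 to 8.71 with a median of 7.86 and fell by 0.75 (SE 0.17, adjusted p = 0.0054). It passed without each high tumour in turn. The interstrand crosslink repair gene Fanci rose by 0.51 (SE 0.17, adjusted p = 0.0421), the sole call among 18 repair genes. Of the fits that left out a high tumour, Rfc1 passed in that without E2F2 null replicate 10 alone and Fanci in that without E2F2 null replicate 18 alone. Rb1, the pocket protein that restrains E2F factors, measured 8.28 to 8.87 in 4 high tumours and 10.20 and 9.81 in E2F2 null replicates 10 and 18. Its fall of 0.99 had an adjusted p of 0.0493 and was lost without any of wild type replicate 3, E2F1 null replicates 4, 6 and 20, and E2F2 null replicates 1 and 18.

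Genes of protein production outside the chromosome differed by small amounts. The mean was higher for 31 of 33 cytosolic ribosomal protein genes on other chromosomes, at a median of 0.10, and for 20 of 20 ribosome and translation genes on chromosome 11, at a median of 0.45. Of the 33, 0 passed in limma (1 below an unadjusted p of 0.05), and with 1 array per name number 22 were higher. Of 26 proteasome subunit genes elsewhere 1 rose and 1 fell with a median of 0.03, Psmd4 by 0.25 and Psma3 by −0.17. Oxidative phosphorylation (0 of 27, median 0.08) and Myc target and ribosome biogenesis genes (0 of 31, median −0.02) had no calls, with 3 and 2 genes below an unadjusted p of 0.05. Whether the difference between genes on and off the chromosome exceeds chance was not tested, since the chromosome 11 genes chose the tumours.

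Among p53 target genes outside the chromosome 17 of 22 had a lower mean and the median was −0.43. Of all genes outside chromosome 11, 45.0% had a higher mean, 3.47% rose and 6.42% fell. Nothing particular to the p53, stress and metabolic lists is read from their counts of calls. Rrm2b, a subunit of ribonucleotide reductase, rose by 0.46 (SE 0.13, adjusted p = 0.0179), and Dram1, an autophagy regulator, fell by 1.53 (SE 0.49, adjusted p = 0.0368). Rrm2b did not pass without wild type replicate 3 or E2F1 null replicate 20, and Dram1 passed without E2F2 null replicate 18 but without no other high tumour. The stress and metabolic lists with any call had 1 to 3. Herpud1 and Asns, both induced by endoplasmic reticulum or amino acid stress, rose by 0.77 and 0.84, and Dhcr7, the last enzyme of cholesterol synthesis, by 0.71 (SE 0.17, adjusted p = 0.00757). Of 21 immediate early and heat shock genes 14 had a lower mean and the median was −0.13. The nuclear receptor gene Nr4a1 rose by 1.72 (SE 0.52, adjusted p = 0.0277), while Egr2, an immediate early transcription factor gene, fell by 1.09 (SE 0.34, adjusted p = 0.0334) and Bag3, a co-chaperone gene, by 0.53 (SE 0.17, adjusted p = 0.0391). The Wnt ligand gene Wnt10a fell by 1.43 and the Wnt inhibitor gene Apcdd1 by 1.37, the adipocyte regulator Pparg by 1.87, and the circadian regulator Clock by 0.46. In limma, further probe sets had adjusted p of 0.065 for Herpud1, 0.119 for Clock, and 0.0717 and 0.0879 for Apcdd1. For Wnt10a, Apcdd1 and Pparg all 6 high tumours lay below the filter floor. Of these 10 genes, Dhcr7 alone passed without wild type replicate 3, and it did so without each other high tumour too. With 1 array per name number none of the 10 passed, Dhcr7 included, and neither did Rrm2b or Dram1.

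The genes with the smallest adjusted p outside chromosome 11 were named by rank, 15 in each direction, and most of them held their call whichever high tumour was left out. Without wild type replicate 3, 14 of the 15 that rose and 14 of the 15 that fell still passed, the exceptions being Ccs and Ampd2. Without each of the other 5 high tumours all 30 passed. With 1 array per name number, 14 of the 15 that rose passed, the exception being Ift46, as did all 15 that fell. Those fits reuse most of the arrays that ranked the 30 genes, so the kept calls are no separate support. The strongest was Bace1, the beta-secretase, which measured 6.61 to 8.45 with a median of 7.90 in the high tumours and 8.07 to 10.87 with a median of 9.42 in the others, with 4 of 6 below all others. It fell by 1.71 (SE 0.24, adjusted p = 1.97e-06), and its 3 other probe sets also fell. Cox20, an assembly factor of cytochrome oxidase, measured 8.40 to 8.94 against 8.71 to 10.11 and fell by 0.72 (SE 0.11, adjusted p = 7.13e-05). Hnrnpd, an RNA-binding protein gene of messenger decay, measured 9.69 to 11.03 against 10.48 to 12.05 and fell by 0.79 (SE 0.13, adjusted p = 8.36e-05).

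The rest of the falls named by rank ranged from 0.43 to 2.42. Fst, the activin antagonist follistatin, measured 2.88 to 5.17 with a median of 3.07 against 3.33 to 8.43 with a median of 6.14. It fell by 2.42 (SE 0.46), a size that is uncertain because all 6 high tumours lay below the filter floor. The growth factor gene Pdgfc fell by 0.93, the endosomal adaptor gene Rab11fip5 by 1.28, the actin-bundling gene Pls3 by 1.24 and the lipid transfer gene Osbpl5, also below the floor in all 6, by 1.96, each with an adjusted p between 8.36e-05 and 0.0031. Trir fell by 0.43, Zfand5 by 0.59 and Ampd2, an AMP deaminase gene, by 0.54, with 4 of 6 high tumours below all others for each. For Zfand5, 1 high tumour lay at 11.41, above the median of 11.32 of the others. The 2 other probe sets of Zfand5 had adjusted p of 0.128 and 0.235.

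The rises named by rank ranged from 0.49 to 2.84. Ubr2, a ubiquitin ligase gene of the N-end rule, measured 8.03 to 8.56 with a median of 8.32 against 7.10 to 8.61 with a median of 7.77 and rose by 0.57 (SE 0.10, adjusted p = 0.000335). Bcl2l14, a member of the BCL2 family on chromosome 6, measured 7.64 to 8.74 with a median of 8.20 against 5.10 to 8.32 with a median of 6.96 and rose by 1.34 (SE 0.24, adjusted p = 0.000335). Bach2, a transcriptional repressor best known in lymphocytes, measured 9.33 to 10.80 with a median of 10.01 with the others at a median of 8.02, and 4 of 6 lay above all others. It rose by 1.97 (SE 0.40, adjusted p = 0.0019). The transporter gene Slc12a8 had the largest rise of the 15, at 2.84 (SE 0.59), and measured 7.75 to 9.86 against 3.29 to 9.83.

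The other 11 genes that rose and were named by rank did so by 0.49 to 1.49. The DNA glycosylase gene Nthl1 rose by 0.64 and Mad2l2, a component of translesion polymerase and shieldin complexes, by 0.59. The copper transporter gene Slc31a2 rose by 1.43 and Ccs, the copper chaperone of superoxide dismutase, by 0.60. Eif2ak3, the kinase PERK of the unfolded protein response, measured 9.61 to 10.35 against 8.37 to 10.81 and rose by 0.87 (SE 0.19, adjusted p = 0.00325). Smagp rose by 1.49, Slc46a3 by 1.35, Sypl by 0.69, Ccdc6 by 0.68, Agpat3, an acyltransferase of phospholipid synthesis, by 0.55 and the intraflagellar transport gene Ift46 by 0.49. Of the 4 probe sets of Sypl, the weakest had an adjusted p of 0.543. With the scores of chromosomes 6, 8 and 15 as covariates all 30 of the ranked genes still passed, on the same arrays that ranked them. The counts over all genes were then 139 higher and 408 lower.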

How the data were processed

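RNA from each tumour was read on Affymetrix mouse arrays. The authors deposited linear signal intensities, made with MAS5 in Affymetrix Expression Console per the submitters' processing notes, with the genome build not given in the sources used here. Each array had a trimmed mean of 500.2, so arrays were used as scaled. Of 22690 probe sets, 20380 had a single gene symbol, 691 several and 1555 none, and 64 were controls. Symbols came from the platform annotation and were placed on chromosomes through RefSeq (GRCm38.p6), where 20359 matched; positions were used only as gene order. Values were taken as log2(signal + 5), each gene by its brightest probe set, and kept where the signal exceeded 74.6 (the 40th percentile) on at least 10 arrays. This left 8769 genes, 776 of them on chromosome 11. A fold change on this scale understates the change of dim genes.

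Genes outside chromosome 11 were tested with limma 3.58.1 (R 4.3.3; eBayes with trend and robust), with genotype as covariate and the shared name number as random block (correlation 0.156). Numbers given to tumours here follow deposit order and pair nothing. Scores were compared with two-sided permutation tests of 100000 resamples. Arrays number 80, with 6 in the high group, and this limits precision. Each p-value sets a difference against the spread between these tumours. The permutation tests of array quality and of the other chromosomes shuffled single arrays, so tumours that share a name number counted as independent. No pair of arrays was identical. On simulated data for this comparison over 7993 genes, 52% of changes of 0.5, 84% of 1, 86% of 1.5 and 100% of 2 log2 units were recovered, with 9 false calls. Outside chromosome 11 the genes named are the 15 with the smallest adjusted p in each direction, and from each list the genes past 0.05 and up to 3 with the smallest p. On chromosome 11 they are the 10 with the largest difference and list members. Krt14, Wap, Gps2, Dhrs7b, Myc and the marker genes of cell types were named beside these, with values seen. The tumours, lists and threshold were chosen with earlier results of these data known. Alternatives covered the pseudocount, filter, scaling, block, covariates, probe sets and each high tumour left out.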

Additional observations from a re-analysis of the deposited data

Results flagged for a closer look

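In the high group of 6, a value was listed where the highest or lowest tumour stood apart from its nearest neighbour by more than 0.625 of the group's range. Chance flags about 1 in 20 groups, and 44 measures were looked at. On chromosome 8, E2F1 null replicate 20 scored −0.01 while the other 5 lay lower. The log2 signal of Col17a1 was 4.52 and that of Fst 5.17 in E2F2 null replicate 18, above the other 5 for both, although all 6 values lie below the filter floor of 6.31. Ift46 was lowest in E2F2 null replicate 10 at 10.19, and Cox20 lowest in wild type replicate 3 at 8.40.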

How the results depend on the processing

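The same 6 tumours were high under every alternative of the rule except the mean over genes, which gave 7. Medians on chromosome 11 ranged from 0.28 to 0.33 over the alternatives run, and no genotype comparison passed under any. Outside chromosome 11, leaving out a high tumour or E2F1 null replicate 6 gave 22 to 269 genes higher and 36 to 519 lower. With 1 array per name number the counts were 36 and 59, with the score as a continuous covariate 57 and 208, and with chromosomes 6, 8 and 15 as covariates 139 and 408. With the name number as a fixed block they were 0 and 1 (370 at an unadjusted p under 0.05). There only the number shared by E2F2 null replicate 18 and 3 other tumours holds both groups, so 1 high tumour carries that fit. In it these differences reversed: Mad2l2 −0.0942, Osbpl5 0.043, Actn3 1.24, Aif1 0.28, Car3 3.65, Cd74 0.40, Cdc25c −0.0258, Cenpe −0.0217, Chac1 −0.27, Cry2 −0.33, H2-Aa 0.23, Hk1 −0.23, Jchain 0.89, Lss −0.17, Ndufa9 −0.0627 and Pms2 −0.14. Of the 80 named genes called outside the chromosome, none reversed under any other alternative. Chromosomes passing numbered 2 with a pseudocount of 32, 2 without E2F1 null replicate 6, and 0 relative to genes outside chromosome 11, an alternative chosen after seeing the data. A threshold of 0.10 or 0.20 chose the same 6 tumours. No paired analysis was possible because replicate numbers follow deposit order and the high tumours were chosen by expression. The cause of these differences was not tested. Genes that lay below the filter floor (6.31 on the log2 scale) in all 6 high tumours, among them Col17a1, Fst, Lama3 and Osbpl5, have falls of uncertain size.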
